A study of Mus musculus with 8 samples.

Results

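Bex1, Tceal7, Tspan7, Eef1a2, Adamts1 and Syce1 are 6 mouse genes whose signal differed widely between macrophage cultures. Tceal7, Eef1a2, Adamts1 and Syce1 were not well above background in some cultures and were in others, while Bex1 and Tspan7 were above it on all 8 arrays. They were chosen by name from 35080 genes and other targets on the array because of this difference between cultures, and 8 of the 55681 non-control probes carry their names. The levels, the spread between cultures and the agreement of paired arrays chose the genes, so these values are given as a description with no test. All 6 passed the filter on dim probes used for the whole table (well above background on at least 4 of 8 arrays), Syce1 with exactly 4 arrays.

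The arrays measured total RNA of bone marrow-derived macrophages, a primary cell obtained by culturing marrow precursors, of C57BL/6J mice labelled male. Cells of 4 mice were each transfected with a control siRNA (4 arrays) or with an siRNA against the loop region of Y RNAs (4 arrays), and the series looks for genes that respond to small RNAs cut from Y RNAs. Each array received 0.2 µg of RNA, and the RNA integrity number was 10 except in control replicate 4, where it was 8. The sources used here do not give the siRNA sequences, their dose, the time after transfection or the growth factor of the culture. Arrays with the same replicate number, 1 in each group, are taken as cells of the same mouse, since the design gives 2 conditions on 4 mice.

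On each array 48.7% to 50.7% of spots passed as well above background, and 0 were saturated. The 10 tested macrophage markers had ranges over the 8 arrays from 0.15 (Cd68) to 0.58 log2 units (Fcgr1), against a median of 0.402 over all targets. The sex label went against the data: Xist, the X inactivation RNA of female cells, was well above background on all 8 arrays with both of its probes (0.89 to 1.14 and -0.61 to -0.07). The Y-linked genes Ddx3y, Eif2s3y, Kdm5d and Uty were well above background on 0 of 8 arrays, and of the 2 probes of Y-linked Ube1y1 one was above background on 8 arrays and the other on 0. Since all 8 arrays shared this, no result could be given without it. The number of probes named for a Y RNA was 0, so the targeted RNAs were not analysed here.

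The 6 genes have unrelated known roles. Bex1 and Tceal7 belong to neighbouring X-linked families of small, largely unstructured proteins, the brain expressed X-linked (Bex) and transcription elongation factor A-like (Tceal) genes, known mostly from neurons and muscle. Tspan7 is a tetraspanin, a membrane protein that organises other membrane proteins and the actin network below them. Eef1a2 is the form of elongation factor 1 alpha found in neurons and muscle, and it brings aminoacyl-tRNA to the ribosome as the general form Eef1a1 does. Adamts1 is a secreted metalloprotease that cuts the matrix proteoglycans aggrecan and versican. Syce1 is a central element protein of the synaptonemal complex, the scaffold that joins paired chromosomes in meiosis, and is known from germ cells.

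The promoters of Bex1, Tceal7 and Syce1 are shown because Bex1 and Tceal7 lie side by side on the X chromosome and varied together, while Syce1 followed a pattern of its own. All 6 genes had a promoter in the RefSeq table (build GRCm38.p6), read from 250 bases before to 30 bases after the start. Capitals mark CACGTG, the E-box, in the first 2 and the palindrome CGCATGCG in the third. Both motifs were chosen after the letters were seen.
Bex1 promoter: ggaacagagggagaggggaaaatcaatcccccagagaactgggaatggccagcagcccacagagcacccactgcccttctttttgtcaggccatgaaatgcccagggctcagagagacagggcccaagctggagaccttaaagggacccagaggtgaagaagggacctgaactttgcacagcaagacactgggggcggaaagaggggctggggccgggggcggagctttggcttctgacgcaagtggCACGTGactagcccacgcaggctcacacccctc
Tceal7 promoter: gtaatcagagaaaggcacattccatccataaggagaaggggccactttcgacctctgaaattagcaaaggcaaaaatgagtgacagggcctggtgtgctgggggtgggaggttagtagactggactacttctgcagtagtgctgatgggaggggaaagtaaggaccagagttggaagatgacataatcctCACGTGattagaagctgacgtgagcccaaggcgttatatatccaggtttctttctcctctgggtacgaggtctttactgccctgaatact
Syce1 promoter: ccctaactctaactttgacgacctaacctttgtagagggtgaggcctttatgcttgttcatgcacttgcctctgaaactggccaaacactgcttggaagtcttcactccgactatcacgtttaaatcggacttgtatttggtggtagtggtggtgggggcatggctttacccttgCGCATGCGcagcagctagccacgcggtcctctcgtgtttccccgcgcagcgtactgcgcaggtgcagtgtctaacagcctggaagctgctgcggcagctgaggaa

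The Bex1 sequence is chrX:136215484-136215763 on the minus strand and the Tceal7 sequence chrX:136223791-136224070 on the plus strand, so the 2 genes are transcribed away from each other from starts 8528 bases apart. CACGTG, which reads the same on both strands, begins at -3 of the Bex1 start and at -60 of the Tceal7 start. It occurs in 6.79% of 32851 RefSeq promoters of this length and in none of the other 4 windows. The Syce1 sequence is chr7:140787825-140788104 on the minus strand, with CGCATGCG at -75, which occurs in 1.78% of promoters. The Adamts1 window holds TATAAA at -32, as do 13.1% of promoters on either strand. The number of CG pairs was 6 for Bex1, 5 for Tceal7, 7 for Eef1a2, 14 for Syce1, 17 for Adamts1 and 27 for Tspan7, against a median of 6 over all promoters. These matches describe letters and say nothing about binding.

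The probes of 2 genes are shown because each has a close paralog on the array. The Bex1 probe A_65_P16753 spans the start codon, in capitals, and the Eef1a2 probe A_51_P485862 has no capitals.
Bex1 A_65_P16753: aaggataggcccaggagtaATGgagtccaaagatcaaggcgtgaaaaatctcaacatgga
Eef1a2 A_51_P485862: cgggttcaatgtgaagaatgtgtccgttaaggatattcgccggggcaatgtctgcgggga

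Each level is a log2 signal minus the 75th percentile of its own array, listed for replicates 1 to 4. A spot counts as well above background by the scanner software's call, and the lowest level with that call lay between -4.69 and -4.44 on the 8 arrays, a signal of 23.4 to 28.0 units. Where a culture was not well above background, that level or the gene's own, whichever was higher, stands in for it and the fold is a lower bound.

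Bex1 went from low to bright between cultures. Its probe A_55_P2031021 (NM_009052, chrX:132748552-132748611, mm9) had levels of -2.79, 2.42, 3.56 and 2.64 with the control siRNA and -2.28, 2.60, 3.74 and 2.90 with the Y RNA siRNA. Both arrays of replicate 1 were far below the other 6, both arrays of replicate 3 were highest, and replicates 2 and 4 lay between, while all 8 arrays were well above background. The mean was 1.46 ± 2.87 (SD, n = 4) with the control siRNA and 1.74 ± 2.72 with the Y RNA siRNA. The signal in replicate 3 was 72.6-fold that in replicate 1. The second probe, which spans the start codon, had levels of -3.32, 1.07, 2.42 and 1.46 in the control arrays and -3.22, 1.47, 2.59 and 1.74 with the Y RNA siRNA, or 54.7-fold between the same replicates.

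Tceal7, the next gene on the X chromosome, followed the same order at a dimmer level. Its probe A_55_P2012011 (NM_001127169, chrX:132760580-132760639) had levels of -6.71, -2.68, -1.42 and -2.09 with the control siRNA and -6.59, -2.69, -1.39 and -2.15 with the Y RNA siRNA. It was not well above background on the 2 arrays of replicate 1 and was on the other 6, and replicate 3 was at least 8.37-fold above replicate 1. A second probe (A_55_P2088785, chrX:132749460-132749519) has an Ensembl transcript as its target and lies nearer to the Bex1 probe than to the first Tceal7 probe. Its levels were -5.21, -4.17, -3.53 and -3.80 in the control arrays and -5.35, -4.34, -3.15 and -3.91 with the Y RNA siRNA, well above background on 5 arrays. The order of the replicates was the same and the range smaller (2.20 against 5.32 log2 units).

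Tspan7 was measured above background on every array. Its probe (NM_019634, chrX:10173646-10173705) had levels of -1.76, 1.51, 2.13 and 1.92 with the control siRNA and -1.86, 1.51, 2.23 and 1.94 with the Y RNA siRNA. Replicate 1 again stood apart from the others, and replicate 3 was 15.9-fold above it. Replicates 2, 3 and 4 were close to one another, with replicate 3 at 1.59-fold the signal of replicate 2 and 1.19-fold that of replicate 4.

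Eef1a2 (NM_007906, chr2:180884427-180884486) had levels of -6.66, -3.05, -2.19 and -2.94 with the control siRNA and -6.64, -3.01, -2.01 and -3.01 with the Y RNA siRNA. It was at background on both arrays of replicate 1, where the signal was 5.2 and 5.3 units, and above it on the other 6. Replicate 3 was at least 5.16-fold above replicate 1, and replicates 2 and 4 differed by a factor of 1.04.

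Adamts1 (NM_009621, chr16:85795044-85795103) had levels of -4.24, -0.86, -0.30 and -0.98 with the control siRNA and -4.51, -1.35, -0.78 and -1.33 with the Y RNA siRNA. Both arrays of replicate 1 were not well above background, and the other 6 were. Replicate 3 was at least 13.9-fold above replicate 1. In each replicate number the array with the Y RNA siRNA was the lower of the pair.

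Syce1 switched in another combination of cultures. Its probe (NM_001143765, chr7:147963253-147963312) had levels of -6.81, -1.44, -6.97 and -0.94 with the control siRNA and -6.77, -1.55, -6.86 and -0.96 with the Y RNA siRNA. Replicates 1 and 3 were at background on all 4 of their arrays, with signals of 4.7 to 5.6 units, and replicates 2 and 4 were above it with signals of 215.0 to 306.9 units. Replicate 4 was at least 12.5-fold above replicate 3 and at least 11.4-fold above replicate 1. Replicate 3, where Syce1 was at background, was the culture in which the other 5 genes were highest. The arrays of replicates 1 and 3 lay in columns 3 and 4 of the slide and those of replicates 2 and 4 in columns 1 and 2, so for Syce1 the culture and the side of the slide cannot be told apart.

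**Figure D1:**
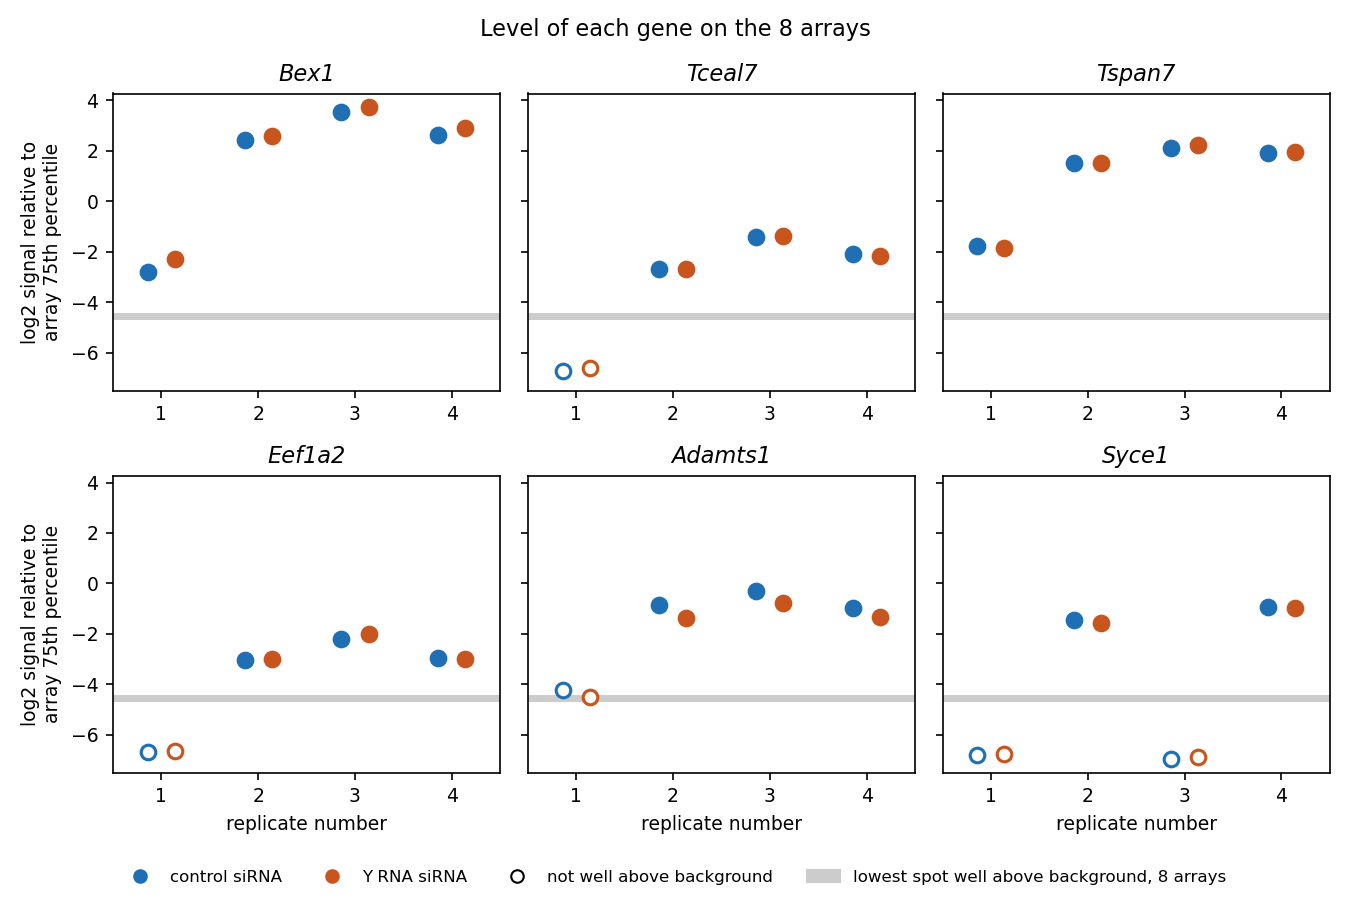
Level of each gene (log2 signal minus the array's own 75th percentile) by replicate number, blue for the control siRNA and orange for the Y RNA siRNA; open circles were not well above background, and the grey band is the range of the lowest level with that call on the 8 arrays. In 5 genes both arrays of replicate 1 lie below the other 6, and Syce1 is at background in replicates 1 and 3.

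The spread between replicate numbers was many times the difference between the 2 arrays of a number. The replicate means of Bex1 spanned 6.18 log2 units, and its largest difference within a replicate number was 0.51. Syce1 spanned 5.96 against 0.11, Tceal7 5.25 against 0.12, Eef1a2 4.55 against 0.19, Tspan7 3.99 against 0.09 and Adamts1 3.83 against 0.49. Over the 19300 targets tested the median span was 0.255 and the median largest difference within a number 0.208. Ranked by the SD within siRNA groups, Syce1 was 1, Bex1 6, Tceal7 12, Eef1a2 16, Tspan7 20 and Adamts1 24 of 19300.

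**Figure D2:**
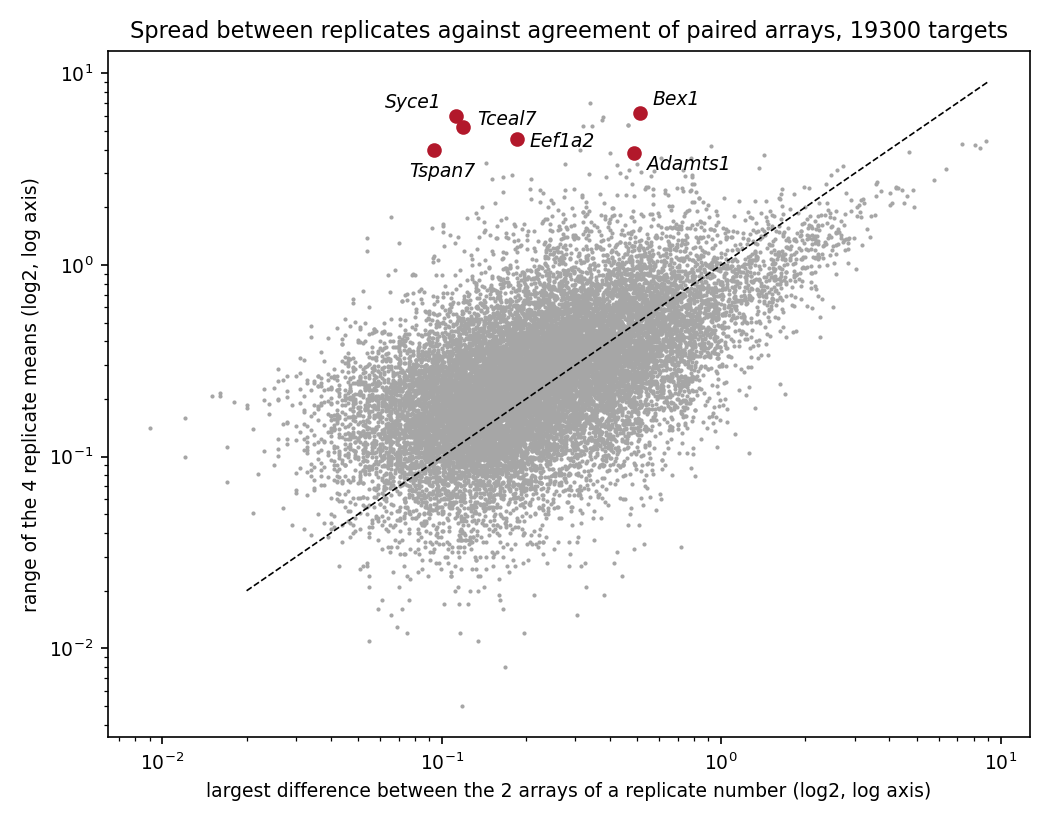
Each point is 1 of 19300 tested targets, with the largest difference between the 2 arrays of a replicate number on the x axis and the range of the 4 replicate means on the y axis, both in log2 units on log axes; the dashed line marks equal values. The 6 genes (red) have ranges of 3.83 to 6.18 with differences within a number of 0.09 to 0.51.

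Both arrays of replicate 1 lay below all 6 others by at least 2 log2 units for Bex1, Tceal7, Tspan7, Eef1a2 and Adamts1, against 29 of 19300 targets in all (0.15%). Their gaps were 4.69, 3.90, 3.27, 3.59 and 2.89. With any gap, replicate 1 was lowest for 15.2% of targets. The arrays of replicates 1 and 3 lay below those of 2 and 4 by at least 2 log2 units for 1 target of 19300 (0.00518%), which was Syce1 with a gap of 5.22. The next targets in that order were Cep295nl and Pdgfrb, each with a gap of 0.49 and both chosen after their values were seen. Replicate 1 being low in this way is part of how the genes came to be chosen, so nothing is read from these shares. A target above background only on the 2 arrays of a single replicate number could not pass the filter and would not be in these counts.

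The gaps were above 0 under every scaling of the arrays that was tried, but their size for the dim genes was not stable. With normexp background correction, which adds an offset of 50 units, the range over the 8 arrays was 1.77 for Tceal7 in place of 5.32, 1.31 for Eef1a2 in place of 4.66, 2.17 for Adamts1 in place of 4.21 and 2.77 for Syce1 in place of 6.02. In the authors' deposited value table it was 2.25, 1.76, 2.61 and 3.19 for the same genes. The bright genes Bex1 and Tspan7 kept 5.64 and 3.61 with normexp.

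The siRNA contrast was small beside this spread. Differences subtract the control from the Y RNA siRNA group in limma without a term for the replicate number, with the SE, and again serve as a description because the rule had them in view. They were 0.285 ± 1.72 for Bex1, 0.02 ± 1.44 for Tceal7, 0.01 ± 1.14 for Tspan7, 0.05 ± 1.24 for Eef1a2, -0.40 ± 1.07 for Adamts1 and 0.01 ± 2.00 for Syce1. None of the 6 was called (limma, Benjamini-Hochberg adjusted p under 0.05), against 0 of 19300 targets (0%), with 652 at an unadjusted p under 0.05.

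Within replicate numbers the differences were tighter. With the replicate number as a fixed block the 95% interval was 0.10 to 0.47 for Bex1 and -0.54 to -0.26 for Adamts1, and it spanned 0 for the other 4 genes. Agreement of paired arrays was part of how the genes were chosen, so these intervals are a description and no test. Bex1 was higher with the Y RNA siRNA in 4 of 4 replicate numbers, by 0.51, 0.18, 0.19 and 0.26, as were 10.4% of targets. The second Bex1 probe was also higher in 4 of 4, by 0.10, 0.40, 0.17 and 0.28. Adamts1 was lower in 4 of 4, by 0.27, 0.49, 0.48 and 0.35 on the log2 scale, as were 8.88% of targets. Under the block 0 of 6 genes and 0 of 19300 targets (0%) passed after adjustment, with 1781 targets at an unadjusted p under 0.05. With the replicate number as a random block 0 of 6 genes passed, against 11 of 19300 targets (0.057%).

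**Figure D3:**
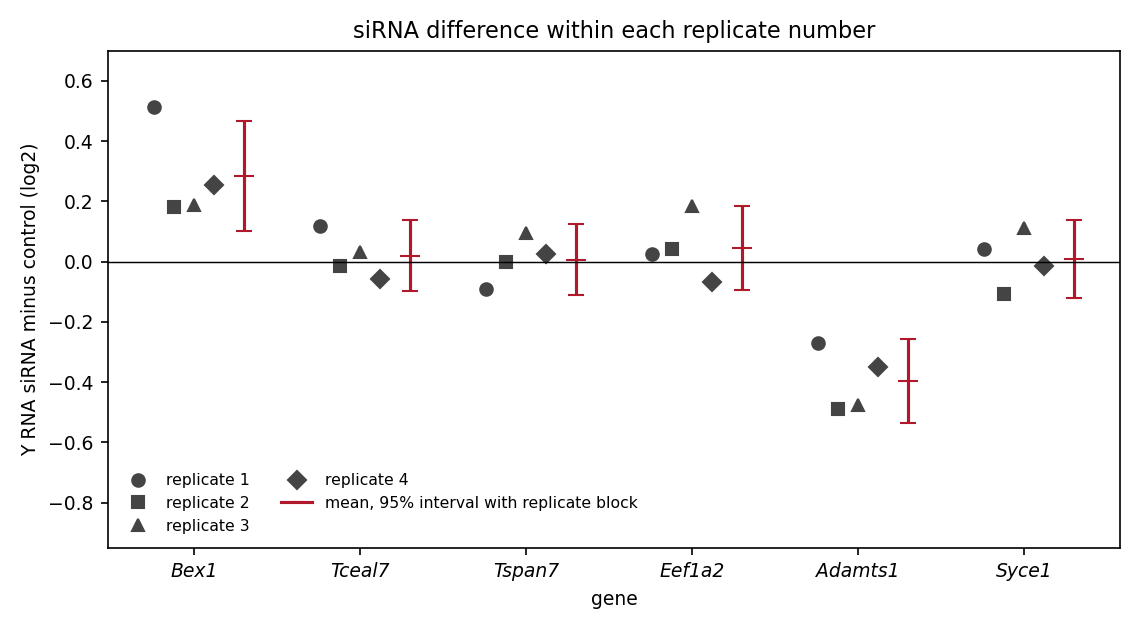
Difference between the 2 arrays of each replicate number (log2, Y RNA siRNA minus control; 4 symbols per gene) and its mean with the 95% interval from limma with the replicate number as a block (red). Adamts1 lies below 0 and Bex1 above 0 in all 4 replicate numbers, with means of -0.40 and 0.285, and neither passed after adjustment over 19300 targets. The intervals are a description, since agreement of paired arrays was part of how the genes were chosen.

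Position on the genome was not used to choose the genes. Of the 6, 3 lie on the X chromosome (50%), as do 709 of 19147 tested targets with a position (3.7%) and 3 of the 29 targets that were low in replicate 1 by at least 2 log2 units (10.3%). These 3 are Bex1, Tceal7 and Tspan7. The Bex1 and Tceal7 probes lie 12.03 kb apart, and the pair shared the order of the replicates. Tceal7 was not well above background in replicate 1, so the sizes of their drops cannot be compared. With normexp the range was 5.64 for Bex1 and 1.77 for Tceal7.

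The genes around them did not share their range. Within 500 kb of the Bex1 probe 29 targets have a probe and 10 were well above background on at least 4 arrays, Tceal7 among them. The other 9 had a median range over the 8 arrays of 0.40 log2 units and none exceeded 0.88, the range of Tceal8. Tceal9, 21.0 kb from Tceal7, had a range of 0.23, and Bex3, 57.4 kb from Bex1, one of 0.46. Tceal5, the nearest gene on the other side of Bex1 (-12.96 kb), was well above background on 0 arrays. So in this stretch of Bex and Tceal genes, Bex1 and Tceal7 varied and Tceal8, Tceal9 and Bex3 stayed within 0.88. Tceal8 had the replicate order of Bex1 at this smaller size, with replicate means of -0.08, 0.43, 0.61 and 0.54.

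Near Tspan7, 4 of 7 targets were above background on at least 4 arrays, with ranges up to 0.41. Its nearest named neighbours were Otc, well above background on 0 arrays, and Mid1ip1, 123 kb away, with a range of 0.18. Near Eef1a2, 25 of 39 targets were above background, with ranges up to 1.05. Ppdpf, 38.7 kb away, had a range of 0.67. Near Adamts1 only 1 of 10 targets was above background, with a range of 0.32. Adamts5, the related aggrecan-cutting protease 63.4 kb away, and Cyyr1 on the other side were well above background on 0 arrays. Among neighbours above background on at least 4 arrays, replicate 1 was lowest on both arrays for 1 of 9 near Bex1 and 2 of 4 near Tspan7. It was so for 2 of 25 near Eef1a2, 0 of 1 near Adamts1 and 4 of 26 near Syce1, against 15.2% of all targets.

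Syce1 lies beside the cytochrome P450 gene Cyp2e1, whose probe is 2.62 kb away. Cyp2e1 had levels of -4.36, -4.02, -3.94 and -3.92 in the control arrays and -4.44, -4.15, -4.11 and -4.17 with the Y RNA siRNA, a range of 0.52, and did not follow Syce1. Zfp941 on the other side had a range of 0.44. Of 26 targets within 500 kb that were above background on at least 4 arrays, Bet1l alone exceeded a range of 2 (4.12), through a single array: it was at -1.87 with the Y RNA siRNA in replicate 1 and between 2.05 and 2.25 on the other 7. Bet1l was singled out after its values were seen.

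**Figure D4:**
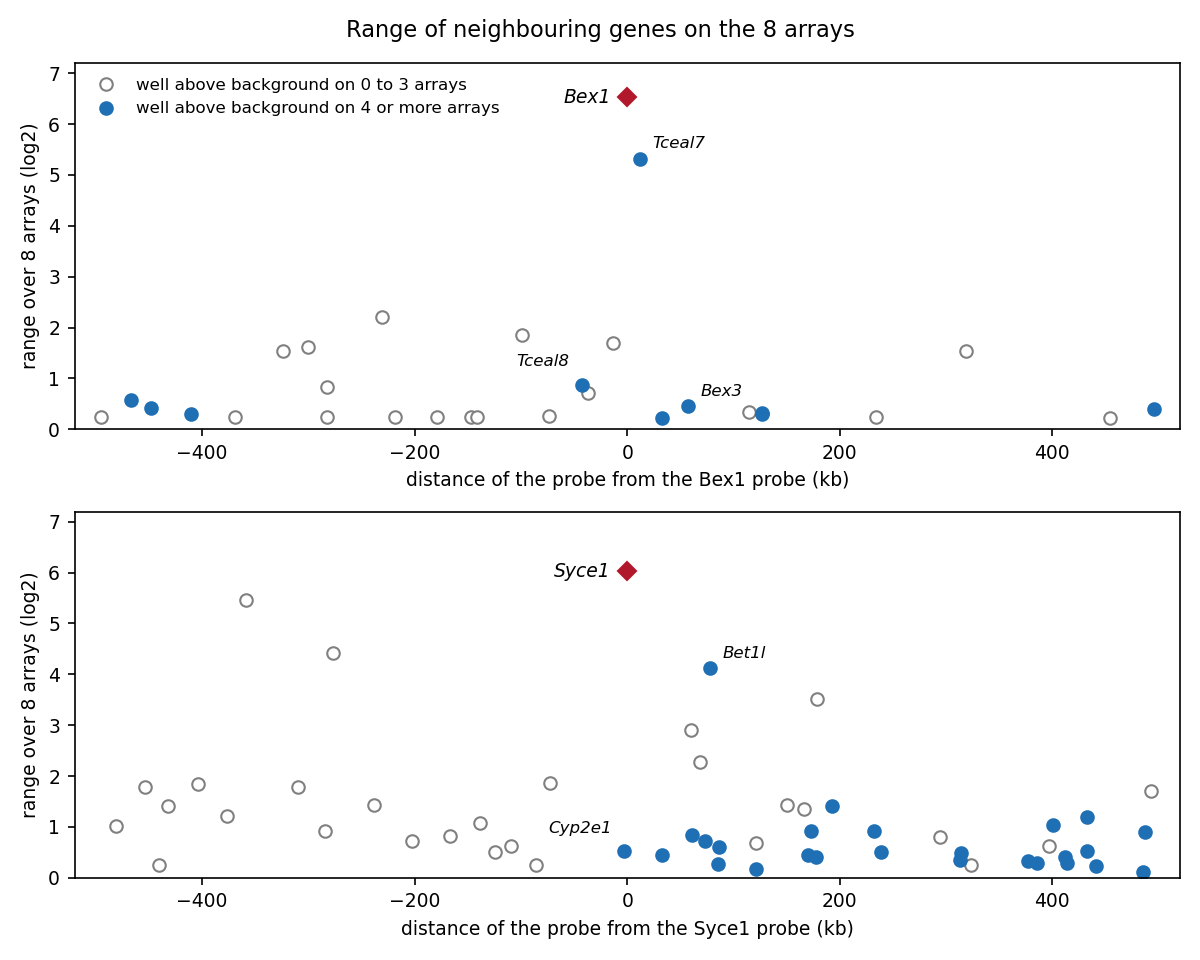
Range over the 8 arrays (log2) of targets with a probe within 500 kb of the Bex1 probe (top) and the Syce1 probe (bottom), by distance in kb; filled circles were well above background on 4 or more arrays, open circles on 0 to 3, and the red diamond is the gene itself. Tceal7 is the filled point beside Bex1 at 5.32, and Bet1l at 4.12 is the highest filled point near Syce1.

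Other genes had profiles close to the 5 that were low in replicate 1. Likeness was measured as the root mean square distance between centred log2 profiles over the 8 arrays among 12748 named genes, and small values mean alike. Tspan7 had the nearest partners, with Sp8, a zinc finger transcription factor, at 0.17, Eef1a2 at 0.26 and Scd1, the stearoyl-CoA desaturase of fatty acid synthesis, at 0.29. Eef1a2 was nearest to Tspan7 (0.26), Sp8 (0.31) and Tceal7 (0.33). Adamts1 was nearest to Tspan7 (0.30), Rarres1 (0.32) and Sp8 (0.32). Sp8, Scd1, Rarres1, Eef1a2, Tceal7 and Adamts1 were not well above background in replicate 1. Distances that involve them therefore depend on how dim signals were scaled. With normexp the range was 3.61 for Tspan7 and 1.31 for Eef1a2, and likeness was not measured on that scale.

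Tceal7 was nearest to Eef1a2 (0.33), to Pla2g5, a secreted phospholipase A2 (0.39), and to Bex1 (0.44). Bex1 was nearest to Tceal7 and to the tight junction gene Cldn11 (0.44 each) and to Chil3, the chitinase-like protein also called Ym1 that marks alternatively activated mouse macrophages (0.50). Chil3 had levels of -3.79, 1.57, 3.16 and 2.93 with the control siRNA and -3.52, 1.91, 3.47 and 3.02 with the Y RNA siRNA. Its gap between replicate 1 and the others, 5.09, was above that of Bex1. Cldn11 had levels of -5.45, 0.13, -0.01 and -0.18 in the control arrays and -5.13, -0.18, 0.08 and -0.37 with the Y RNA siRNA, so replicate 3 did not stand above replicates 2 and 4 there. Cldn11 too was not well above background in replicate 1. Of the 29 targets low in replicate 1 by at least 2 log2 units, 26 had their highest replicate mean in replicate 3. The share over all targets was not counted for this measure, so nothing is read from it. By a stricter measure, both arrays of replicate 3 lay above all 6 others for Bex1, Tceal7, Tspan7, Eef1a2 and Adamts1, as for 11.1% of targets.

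Syce1 had no near partner. Its nearest genes were Pdgfrb, a growth factor receptor of stromal cells, at 1.81, Csprs at 2.20 and the immunoglobulin gene Igkv4-53 at 2.21. Pdgfrb had levels of -5.19, -2.96, -4.26 and -1.83 in the control arrays and -5.09, -3.14, -6.62 and -3.76 with the Y RNA siRNA, so it was lower in replicates 1 and 3 but without the agreement within a number that Syce1 had. Csprs was also lower in replicates 1 and 3, by less than Syce1, with replicate means of -2.74, -1.10, -1.62 and -0.60. Against the other 5 genes the distance of Syce1 was 2.51 to 2.85.

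**Figure D5:**
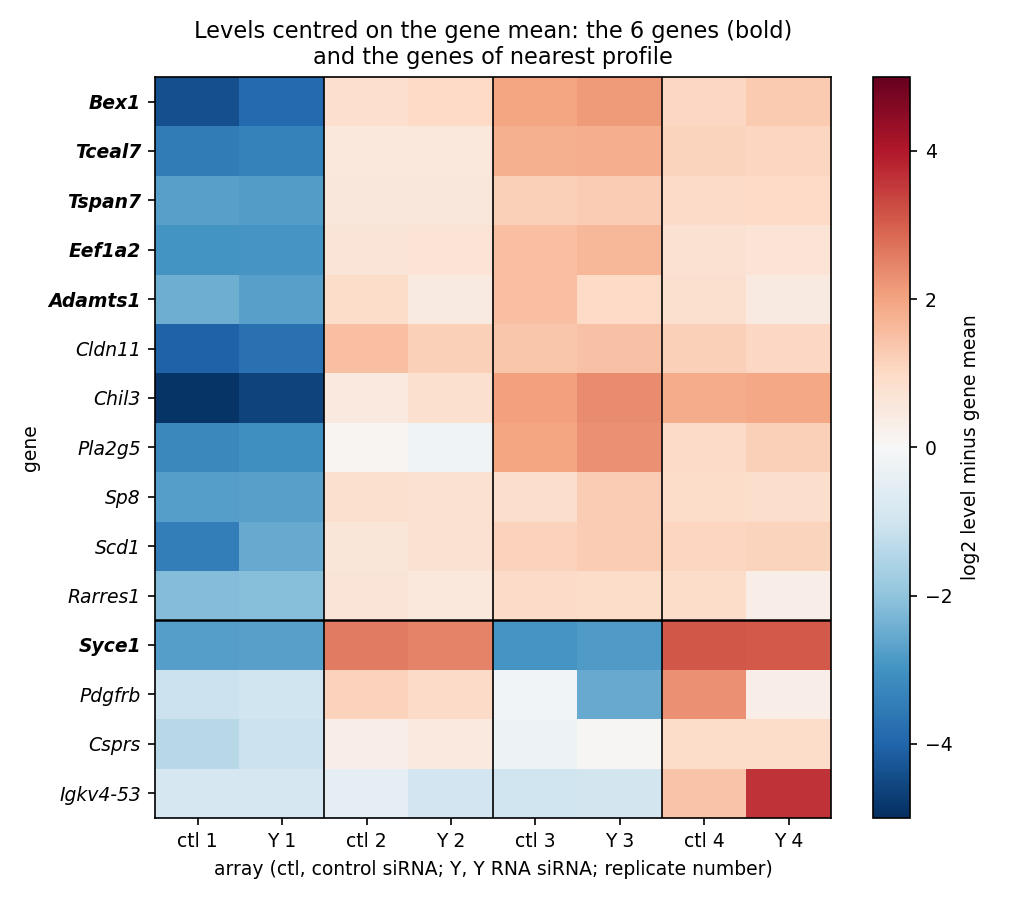
Level minus the gene's mean over the 8 arrays (log2, colour) for the 6 genes (bold) and the genes of nearest profile, with arrays ordered by replicate number. Above the thick line the replicate 1 arrays are low and replicate 3 is usually highest. Syce1 is low in replicates 1 and 3. Of its 3 nearest genes, Pdgfrb and Csprs are also lower in replicates 1 and 3 but by less, and Igkv4-53 is high in replicate 4 alone.

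The named genes with the widest spread within siRNA groups also included 2 of another kind. Syce1 had an SD of 3.26 and Chil3 of 3.24, followed by Katnal1 (2.94), Prr14l (2.87), Bex1 (2.80) and Cldn11 (2.61). Katnal1 was at -6.48 on a single array, that of the Y RNA siRNA in replicate 1, and between 1.61 and 1.94 on the others. Prr14l was at -6.67 only in control replicate 1. The 2 arrays of replicate 1 therefore differed for Katnal1 and Prr14l, whereas for the 6 genes described here they agreed.

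The families and partners of the 6 genes showed no call in the siRNA contrast. The median SD was below the 0.139 of all targets in 3 of the 5 lists and above it for the meiosis and Adamts lists. Among 24 genes of the synaptonemal complex and meiotic recombination with a probe, 8 were tested, and 13 were well above background on 0 arrays, among them Sycp1, Sycp2 and Sycp3. Of the 7 tested besides Syce1, 0 were called, the median difference was 0.06 against 0.0045 over all targets, and the median SD was 0.314 against 0.139. Syce2, the central element partner of Syce1, had replicate means of 1.86, 2.28, 2.66 and 2.07, highest in replicate 3 where Syce1 was at background. By replicate mean, the meiotic cohesin genes Smc1b (-5.31, -4.14, -4.17 and -3.99) and Stag3 (-3.37, -2.51, -2.99 and -3.05) were lowest in replicate 1, as was Syce2. With both arrays below all others, this held for Smc1b and not for Stag3 or Syce2. Tex15 had its highest replicate mean in replicate 1.

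All 15 genes of translation elongation were tested. Of the 14 besides Eef1a2, 0 were called, the median difference was -0.01 and the median SD 0.114. Eef1a1, the general form of the factor, had replicate means between 7.24 and 7.55, highest in replicate 1. Eef1e1 (1.11, 1.59, 1.75 and 1.52) was lowest in replicate 1. Gspt2, a release factor gene, was the 1 member with an unadjusted p under 0.05 (limma), against 652 of all 19300 targets. Its difference was 0.14 ± 0.05 (SE).

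Of 24 Bex, Tceal, Armcx and related genes with a probe, 14 were tested and 7 were well above background on 0 arrays, Bex2 and Bex4 among them. Of the 12 besides Bex1 and Tceal7, 0 were called, with a median difference of 0.10 and a median SD of 0.111. An unadjusted p under 0.05 (limma) was reached by 3 of the 12, against 652 of all 19300 targets. These were Armcx6 (0.24 ± 0.05, SE), Armcx5 (-0.32 ± 0.08) and Bex3 (0.235), the last named after its value was seen. Armcx1, a mitochondrial protein gene, had the widest spread of the 12, with replicate means of -3.93, -2.98, -2.55 and -2.71 in the order of Bex1. Replicate 1 was lowest for 3 of the 12 with any gap (15.2% over all targets), and 0 reached a gap of 2.

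Of 31 tetraspanin genes 21 were tested, and of the 20 besides Tspan7 0 were called, with a median difference of 0.02 and a median SD of 0.126. Tspan33 had the widest spread, with replicate means of 1.78, 0.28, 0.83 and -1.60, highest in replicate 1 and lowest in replicate 4. Tspan15 was highest in replicate 2 (-2.82, -1.58, -3.14 and -2.70) through a single array, at -0.53 in the control group against -2.63 with the Y RNA siRNA. Replicate 1 was lowest for 2 of the 20 with any gap (15.2% over all targets).

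Of 32 Adamts genes, inhibitors and matrix substrates 13 were tested, and 14 were well above background on 0 arrays. Of the 12 besides Adamts1 0 were called, with a median difference of 0.02 and a median SD of 0.456 against 0.139 over all targets. Adamtsl5 was the 1 member with replicate 1 below all others, at -0.21, 1.36, 1.33 and 1.17. Thbs1, the matrix glycoprotein thrombospondin 1, ran the other way and was highest in replicate 1 (1.18, -0.45, -0.68 and 0.00). Acan, which encodes the substrate aggrecan, had replicate means of -4.31, -4.09, -4.08 and -4.29.

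Some marker lists of other cell types held members that were lowest in replicate 1, as the 5 genes were, and others held none. Of 8 tested osteoclast markers 4 were lowest in replicate 1 on both arrays, against 15.2% of all targets, and Calcr was above background on 0 arrays. Ctsk, the collagen-cutting protease cathepsin K, had replicate means of 2.62, 5.09, 5.63 and 5.36, the order of Bex1. Atp6v0d2, a proton pump subunit, followed with 2.69, 4.61, 5.05 and 4.74. The summed linear signal of the list, in units of the array's 75th percentile, was 23.1, 73.3, 104 and 85.1 in replicates 1 to 4 (24.4 to 108 over the control arrays and 21.8 to 99.5 with the Y RNA siRNA). Nfatc1, Oscar, Ocstamp and Dcstamp were not lowest in replicate 1.

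Of 10 tested stromal and fibroblast markers 8 were lowest in replicate 1 on both arrays, against 15.2% of all targets. The counts of the lists below stand beside the same share. Of the 8, Col3a1, Col5a1, Thy1, Postn and Cxcl12 were well above background on only 4 to 7 arrays, so their low levels lie near background. Lum was above background on 0 arrays. The summed signal was 2.76, 4.19, 5.39 and 5.90 (2.19 to 6.15 over the control arrays and 3.33 to 5.82 with the Y RNA siRNA). Pdgfrb, which was nearest to Syce1, is on this list but not among the 8, with replicate means of -5.14, -3.05, -5.44 and -2.80. Sparc, which made up the largest part of the sum, was not among them either. The dendritic cell list had 3 of 4 lowest in replicate 1, with Itgax at 0.46, 2.12, 2.92 and 2.09. Its summed signal was 98.6, 97.2, 98.6 and 93.2 in replicates 1 to 4. That sum was mostly Siglech, which was not lowest in replicate 1 (6.59, 6.51, 6.48 and 6.45), and says little about the other markers. The neutrophil list had 4 of 7, with Ngp, Prtn3 and Cxcr2 above background on 0 arrays and sums of 6.65 to 7.87. The progenitor list had 2 of 6, with Kit at -2.85, -1.86, -0.92 and -1.59.

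Erythroid and megakaryocyte, mast cell and germ cell markers had 1 member each lowest in replicate 1, of 3, 3 and 2 tested, against 15.2% of all targets. The mast cell member was Kit, already counted in the progenitor list, and Tpsb2 and Prss34 were not lowest in replicate 1. The germ cell member was Piwil2 with a gap of 0.01, and Dppa3 was highest in replicate 1. The summed erythroid and megakaryocyte signal was 56.8, 98.7, 91.3 and 85.3 in replicates 1 to 4 (52.4 to 104 over the control arrays and 61.2 to 93.3 with the Y RNA siRNA), with 7 of its markers above background on 0 arrays. That sum was mostly Pf4, with replicate means of 5.8, 6.61, 6.5 and 6.4, and says little about the other markers. Epor and Ppbp, also tested, were not lowest in replicate 1. Macrophage (10 tested), endothelial (4), neuronal (3), lymphocyte (2) and muscle (1) markers had 0 members lowest in replicate 1. The summed macrophage signal was 1770, 1600, 1515 and 1641 in replicates 1 to 4, highest in replicate 1. The neuronal genes Tubb3, Syt1, Stmn2, Map2 and Nefl, the muscle genes Actc1, Acta1, Ckm and Myog and the germ cell genes Sycp3, Stra8 and Tex101 were above background on 0 arrays. The part of other cell types in the levels of the 6 genes was not tested, and in these bulk samples fewer cells of a type and less RNA per cell cannot be told apart.

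Replicates 1 and 2 lay in row 1 of the slide and replicates 3 and 4 in row 2, so each row held arrays with high and with low Syce1 levels. Row 1 also held low and high arrays of the other 5 genes. Columns 1 and 3 of the slide held the Y RNA siRNA and columns 2 and 4 the control, so siRNA and column cannot be told apart. The array with an RNA integrity number of 8, control replicate 4, differed from its partner by 0.35 for Adamts1, 0.26 for Bex1 and less than 0.10 for the other 4 genes.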

How the data were processed

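The 6 genes, the lists and the tests were chosen with earlier results of these data known. Per the file headers, the deposited scanner files hold background-subtracted intensity values per spot from Agilent Feature Extraction 10.7.3.1 (protocol GE1_107_Sep09), with probe positions on mm9 and no scaling between arrays. An alternative used the value table that the authors deposited, on a log2 scale, with column medians of 6.26 to 6.28; its correlation with the log2 raw signal was 0.9995 or more, and its centring is unknown. Each array has 62976 spots, of which 3671 controls were left out.

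Levels are log2 processed signal minus the array's 75th percentile (9.04 to 9.34). Only probes called well above background by the scanner software on 4 or more of 8 arrays entered (26837), the probe of highest mean stood for a gene (19300 targets, 13276 with a symbol), and names were updated by accession from RefSeq GRCm38.p6 (26762 probes matched). The siRNA contrast was fitted in limma 3.58.1 (R 4.3.3) (two-sided, Benjamini-Hochberg over all targets), with the replicate number as an alternative block; tables were made with Python 3.11.15. The fit was tested on simulated data. After subtracting group means, arrays of a replicate number correlated at 0.598, 0.152, 0.575 and 0.285, and the control array of replicate 2 correlated best with another number; the samples were paired because the design gives 4 mice and every value was over 0.1. The number of arrays limits precision.

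Genes named are the 6 with every probe; per family list the 4 of widest SD and 2 of smallest p; per gene the 3 of nearest profile and the nearest named gene on each side within 500 kb; and the 6 of widest SD. A neighbouring gene that this rule names is not reported here. From each marker list, examples were named after their values were seen.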

Additional observations from a re-analysis of the deposited data

Results flagged for a closer look

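Among 4 arrays of a group, Dixon's ratio (the gap of the extreme array to its nearest neighbour over the group's range) was above its 95% critical value in 2 of 16 groups, the 8 probes in both siRNA groups. Tspan7 in the control group had a ratio of 0.84, with replicate 1 at -1.76 below the others. Adamts1 with the Y RNA siRNA had a ratio of 0.846, with replicate 1 at -4.51. Chance flags about 1 in 20 groups, but the 6 genes were chosen for such differences and the groups share mice and genes, so these ratios are a description and no test.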

How the results depend on the processing

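No gene of the 6 and no gene of the 5 family lists was called under any alternative. The count over all targets stayed at 0 except with the random replicate block, which gave 11. The replicate block changed no call and gave Bex1 0.285 and Adamts1 -0.397, as without it. Differences near 0 changed sign: Tceal7 to -0.012 with normexp and -0.029 in the deposited value table, Tspan7 to -0.001 with quantile normalization and -0.040 in the deposited table, and Syce1 to -0.115 with normexp, -0.039 with quantile normalization and -0.170 in the deposited table. Leaving out 1 array, or both arrays of a replicate number, gave siRNA differences of -1.131 to 1.624 for Bex1, -1.142 to 1.149 for Tceal7, -0.898 to 0.943 for Tspan7, -0.938 to 1.037 for Eef1a2, -1.277 to 0.442 for Adamts1 and -1.017 to 1.041 for Syce1, since a lone replicate then sits in 1 group only. The range over the arrays was 1.33 to 6.53 for Bex1, 1.31 to 5.32 for Tceal7, 0.72 to 4.08 for Tspan7, 1.05 to 4.66 for Eef1a2, 1.05 to 4.21 for Adamts1 and 5.52 to 6.02 for Syce1, the lowest value without replicate 1 in the first 5. With normexp it was 1.77 for Tceal7, 1.31 for Eef1a2 and 2.17 for Adamts1, and it was 2.25 for Tceal7 and 1.76 for Eef1a2 in the deposited table. Setting dim arrays to the lowest level well above background gave 2.48 for Eef1a2, 3.11 for Tceal7 and 3.70 for Syce1, and the other Tceal7 probe, added after seeing the data, 2.20. The largest difference within a replicate number was 0.29 for Bex1 and 0.21 for Syce1 with normexp, and 0.29 for Bex1, 0.19 for Tspan7, 0.05 for Eef1a2 and 0.44 for Syce1 in the deposited table; the cause of these shifts was not tested. Dim signals limit the size of the folds of Tceal7, Eef1a2, Adamts1 and Syce1 to lower bounds.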

Other observations

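Besides Chil3, the targets low in replicate 1 by at least 2 log2 units held 2 further genes known from alternatively activated mouse macrophages, Retnla and Arg1, both named after their values were seen. Mrc1, another gene known from that state, did not share the pattern, with replicate means of 7.06, 7.11, 6.96 and 7.17. Retnla, which encodes the secreted protein Fizz1, had replicate means of -6.42, -3.40, -0.52 and -2.31, and Arg1, the arginase of the urea cycle, -6.51, -3.81, -3.59 and -3.86. Neither was well above background in replicate 1, so the sizes of their drops cannot be read from these levels. Arg1 was dim elsewhere too, at most -3.43. The chemokine gene Ccl8 was at 0.08, 2.68, 3.42 and 2.93, and Tfrc, the transferrin receptor gene, at 2.40, 5.26, 5.10 and 5.00. Replicate 3 was highest for Retnla, Arg1 and Ccl8 and replicate 2 for Tfrc, all given as a description.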
